A study of Mus musculus with 13 samples.

Results

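Heat shock proteins and their co-chaperones were followed as 10 named genes in the aortas of mice given an adenovirus: Hspa1a, Hspa1b, Hspa8, Hsph1, Hspb1, Hsp90aa1, Dnajb1, Dnaja1, Bag3 and Cryab. They are 10 of the 54532 genes in the count table, and all 10 were among the 15811 genes with enough counts to be tested. The genes were chosen from what these same aortas had shown, so their levels, their group differences and their correlations are given as a description, with no p for any of the 10. How many of them passed a threshold in the edgeR fit over all 13 aortas is stated beside the share of all genes that did. For other fits, that share or the number or range of genes in all is given. Each of the 13 aortas was 1 RNA-seq library, 6 from the group labelled Ad-sham and 7 from the group labelled Ad-FAM3A.

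All mice were ApoE-/- and received angiotensin II (AngII), a peptide that raises blood pressure and, in this strain, causes abdominal aortic aneurysms. The subcutaneous pumps released 1000 ng/kg/min for up to 28 days, starting at 10 weeks of age, and no aorta without AngII or without virus was sequenced among the samples used here. Both groups had 5 tail vein injections of an adenovirus, which carried mouse Fam3A with a FLAG tag behind the EF1A promoter in Ad-FAM3A and lacked the Fam3A gene in Ad-sham. Because delivery was systemic and EF1A is active in most cell types, expression was not restricted to the aorta, and the sex of the sequenced mice is not given in the sources used here. The comparison asks how FAM3A overexpression changed the transcriptome of the aneurysm wall, and the heat shock genes are described within it.

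Heat shock proteins are chaperones that bind unfolded or aggregating proteins in the cytosol and return them to a folded state or pass them on for degradation. HSP70 proteins work in cycles with J-domain (HSP40) partners that load clients and with nucleotide exchange factors that release them, HSP90 acts on clients at a later stage, and small heat shock proteins hold unfolded clients without using ATP. When misfolded proteins accumulate, heat shock factor 1 binds heat shock elements, inverted repeats of nGAAn, and switches on many of these genes together. In arterial smooth muscle several of them are also made without stress, among them the small heat shock proteins.

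The promoter stretches that carry such repeats are shown because they are what the 10 genes could share at the level of sequence. They come from RefSeq windows of 250 bases before to 50 bases after each annotated start (GRCm38.p6), which held 7 of the 10 genes; Hspa8, Hsp90aa1 and Cryab had no entry. The motifs searched were the pairs GAANNTTC and TTCNNGAA and the triples GAANNTTCNNGAA and TTCNNGAANNTTC. Each pair is its own reverse complement and each triple the reverse complement of the other, so both strands were covered, and each triple contains both pairs. Capitals mark the motif in the sequences below, which read 5′ to 3′ on the gene's strand.
Hspa1a, chr17:34972157-34972316, minus strand, the 160 bases before the start: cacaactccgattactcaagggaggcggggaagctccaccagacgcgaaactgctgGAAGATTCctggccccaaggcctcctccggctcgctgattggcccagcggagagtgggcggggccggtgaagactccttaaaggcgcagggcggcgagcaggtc
Hspa1b, chr17:34959239-34959398, minus strand, the 160 bases before the start: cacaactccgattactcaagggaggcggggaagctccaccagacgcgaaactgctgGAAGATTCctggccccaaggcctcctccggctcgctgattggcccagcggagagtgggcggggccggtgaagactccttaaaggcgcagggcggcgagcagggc
Hspb1, chr5:135887759-135887918, plus strand, the 160 bases before the start: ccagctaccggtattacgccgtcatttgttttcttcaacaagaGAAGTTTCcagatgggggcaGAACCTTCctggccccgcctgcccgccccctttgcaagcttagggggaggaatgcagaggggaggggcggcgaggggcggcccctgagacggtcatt
Hsph1, chr5:149636352-149636381, minus strand, before the start: tgggtagaatctTTCTCGAAggctcgagaa
Hsph1, chr5:149636287-149636316, minus strand, after the start: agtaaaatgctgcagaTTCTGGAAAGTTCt
Dnaja1, chr4:40722333-40722362, plus strand, before the start: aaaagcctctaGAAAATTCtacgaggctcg
Bag3, chr7:128523603-128523632, plus strand, after the start: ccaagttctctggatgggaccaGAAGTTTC

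A pair was found in 6 of the 7 genes with a window, beside 17% of the 27025 genes and 15.1% of the 32851 windows in the table. A triple, held by 0.662% of those genes and 0.603% of the windows, was found in Hsph1, 37 bases after the start. Hspa1a and Hspa1b had their pair at the same place, 104 bases before the start, and their windows differed at 4 of 300 bases. Hspb1 had pairs 117 and 97 bases before its start, and Dnaja1 had one 124 bases before the start in 1 of its 3 windows. Neither of the 2 windows of Dnajb1, which start from different annotated starts, held a pair. These matches describe letters in a window and were not measured as binding sites.

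The libraries held 14481179 to 19797407 counts. Values below are CPM, a gene's count relative to the size of its library after TMM scaling (factors of 0.933 to 1.089), as mean ± SD over aortas, and n = 6 and n = 7 throughout. Fam3a itself was at 24.4 ± 4.27 CPM in Ad-sham and 24.0 ± 4.64 CPM in Ad-FAM3A, so the count of the targeted gene does not separate the groups, and directions rest on the labels. Smooth muscle markers were present in every aorta (7 of 7 tested, summed CPM of 3031 to 13112 in Ad-sham and 2293 to 18761 in Ad-FAM3A). In whole tissue, fewer cells of a type and less RNA per cell cannot be told apart.

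All 10 genes had a higher mean in Ad-FAM3A than in Ad-sham, by log2 fold changes (log2FC, Ad-FAM3A over Ad-sham) of 0.11 to 1.86 with a median of 0.65, against a median of 0.00 over all genes tested, of which 50.4% were higher. None passed the test between groups: 0 of 10 reached an adjusted p under 0.05 together with a log2FC beyond 1 in either direction (edgeR's quasi-likelihood test), and 0 of the 15811 genes did (0%), with 0 by limma-voom and 10 by DESeq2, none of them a heat shock gene. At an unadjusted p under 0.05, 6 of the 10 were higher and 0 lower in edgeR, where 2.98% of all genes were higher and 2.93% lower at that level. DESeq2 also gave 6, but with 1501 genes in all at that level, against 934 by edgeR. The edgeR count of the 10 was 3 without Ad-FAM3A4 or without Ad-FAM3A5. Over all left-out aortas, 491 to 1345 genes in all had such a p. It was 1 of the 10 without the 4 aortas with kidney markers described further on, where 1.17% of all genes were higher at that level. Since these genes were chosen on these aortas, nothing is read from that count. The smallest adjusted p of any gene by edgeR was 0.810. The groups overlapped for all 10 genes, as they did for all but 0.0949% of the genes tested.

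**Figure D1:**
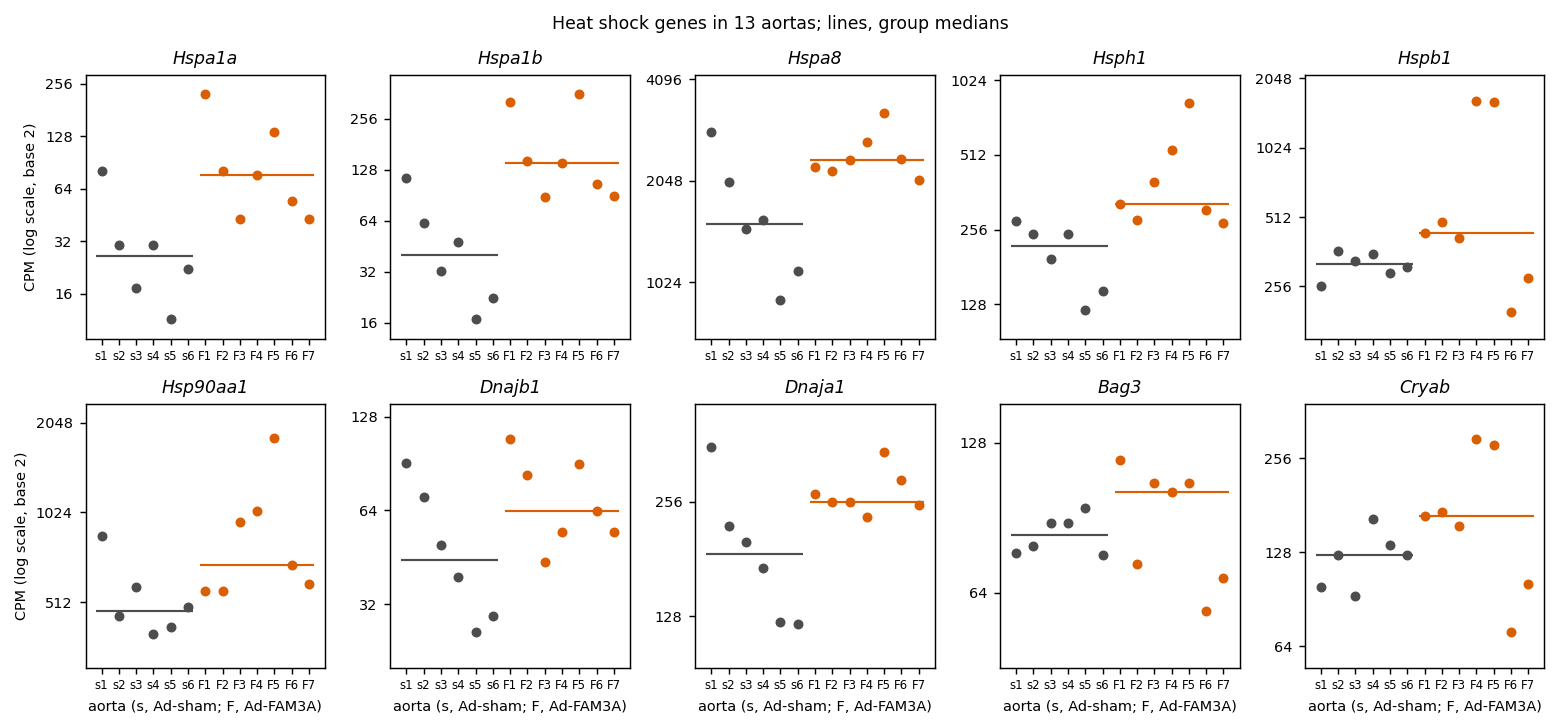
CPM of each of the 10 heat shock genes (log scale, base 2) in the 6 Ad-sham aortas (grey, s1 to s6) and the 7 Ad-FAM3A aortas (orange, F1 to F7), 1 point per aorta, with group medians as lines. Hspa1b runs from 16.8 CPM in Ad-sham5 to 359 CPM in Ad-FAM3A5, and Hspb1 stands at 1639 and 1613 CPM in Ad-FAM3A4 and Ad-FAM3A5 against at most 487 CPM in the other aortas.

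The inducible HSP70 genes spanned the widest range. Hspa1a and Hspa1b (chr17:34969190-34972156 and chr17:34956436-34959238, minus strand) encode nearly the same HSP70 protein, which most unstressed cells make at a low level. Hspa1b ranged in Ad-sham from 16.8 CPM through a median of 40.0 to 115 CPM, and in Ad-FAM3A from 88.2 CPM through a median of 140 to 359 CPM. All 7 Ad-FAM3A aortas lay above the Ad-sham median and 4 above every Ad-sham aorta, and the groups met because Ad-sham1 stood far above the other Ad-sham aortas, whose highest was 61.7 CPM. The mean was 49.3 ± 36.1 CPM in Ad-sham and 178 ± 114 CPM in Ad-FAM3A, which is a log2FC of 1.86 (standard error, SE, 0.49).

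Hspa1a ranged in Ad-sham from 11.5 CPM through a median of 26.2 to 80.3 CPM, and in Ad-FAM3A from 42.7 CPM through a median of 76.7 to 222 CPM. Ad-FAM3A1 was highest, followed by Ad-FAM3A5 at 135 CPM, and 3 Ad-FAM3A aortas lay above Ad-sham1. The log2FC was 1.55 (SE 0.49), and the highest aorta exceeded the lowest 19.4-fold, against 21.4-fold for Hspa1b and a median of 3.01-fold over all genes tested.

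Reads of this pair can be misplaced between its genes. Of the 150-base windows in the transcripts of Hspa1a, 38.1% were found letter for letter in Hspa1b, and 40.5% of those of Hspa1b in Hspa1a. Hspa1a took 27.3% of the summed counts in Ad-FAM3A5 and 49.7% in Ad-sham6, with a median of 35.4%. Summed into 1 gene, the pair stood at 81.2 ± 60.4 CPM in Ad-sham and 272 ± 174 CPM in Ad-FAM3A, a log2FC of 1.74 (SE 0.49), a difference that does not depend on how the reads were divided.

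Hspa8 (chr9:40800984-40810087, plus strand), the constitutive HSP70 that folds new proteins and uncoats clathrin vesicles, was far more abundant. Its level ranged from 905 CPM through a median of 1523 to 2861 CPM in Ad-sham, and from 2066 CPM through a median of 2356 to 3256 CPM in Ad-FAM3A. Ad-sham1 was the second highest of all aortas for this gene, and Ad-sham5 and Ad-sham6 (1103 CPM) were the lowest. The Ad-FAM3A aortas varied less among themselves, with a coefficient of variation of 16.4% against 42.7% in Ad-sham, and the log2FC was 0.56 (SE 0.26), or 0.19 without the aortas with kidney markers.

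Hsph1 (chr5:149614287-149636376, minus strand), the large HSP110 that acts as a nucleotide exchange factor for HSP70, separated the groups more than Hspa8 did. It ranged from 121 CPM through a median of 220 to 276 CPM in Ad-sham and from 273 CPM through a median of 324 to 830 CPM in Ad-FAM3A. Of the Ad-FAM3A aortas, 6 of 7 exceeded every Ad-sham aorta, and Ad-FAM3A7, the remaining one, was just below Ad-sham1. The means were 205 ± 62.1 and 421 ± 202 CPM, a log2FC of 1.04 (SE 0.30).

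The J-domain partners had smaller log2FC values than the inducible HSP70 genes. Dnajb1 (chr8:83608193-83612653, plus strand), the HSP40 most often induced with inducible HSP70, ranged from 25.9 CPM through a median of 44.4 to 90.8 CPM in Ad-sham and from 43.8 CPM through a median of 63.6 to 108 CPM in Ad-FAM3A. Its log2FC was 0.48 (SE 0.30), or 0.73 without Ad-sham1, which had the second highest value, and 0.18 without the aortas with kidney markers. Dnaja1 (chr4:40722150-40737149, plus strand), which helps HSP70 with protein folding and mitochondrial import, was highest in Ad-sham1 at 356 CPM, above every Ad-FAM3A aorta (233 to 345 CPM). The other Ad-sham aortas lay between 122 and 221 CPM, below every Ad-FAM3A aorta, and the log2FC was 0.45 (SE 0.23), or 0.69 without Ad-sham1 and 0.13 without the aortas with kidney markers.

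Hsp90aa1 (chr12:110690605-110702728, minus strand), the stress-inducible cytosolic HSP90, ranged from 401 CPM through a median of 477 to 857 CPM in Ad-sham and from 558 CPM through a median of 684 to 1825 CPM in Ad-FAM3A. Ad-FAM3A5 stood apart, followed by Ad-FAM3A4 at 1039 CPM and Ad-FAM3A3 at 954 CPM. The log2FC was 0.73 (SE 0.31), and 0.46 without Ad-FAM3A5. Hsp90ab1, the constitutive form and not one of the 10, was at 1513 ± 227 and 1762 ± 311 CPM, a log2FC of 0.22 (SE 0.18).

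The small heat shock proteins had another pattern. Hspb1 (chr5:135887919-135889563, plus strand) encodes HSP25, a small chaperone that also binds actin filaments in smooth muscle. In Ad-sham it varied little, from 258 CPM through a median of 321 to 364 CPM with a coefficient of variation of 12.4%. In Ad-FAM3A it reached 1639 CPM in Ad-FAM3A4 and 1613 CPM in Ad-FAM3A5, lay between 417 and 487 CPM in 3 aortas, and was 277 CPM in Ad-FAM3A7 and 197 CPM in Ad-FAM3A6, the lowest of all 13. The log2FC of 1.19 (SE 0.46) thus rested largely on a pair of aortas: it was 0.85 without Ad-FAM3A4, and 0.78 in limma-voom, which averages log values. Reads of the processed pseudogene Hsp25-ps1 showed the same pair, with counts of 48 in Ad-FAM3A4 and 83 in Ad-FAM3A5 and of 5 to 17 elsewhere, too few to alter the level of Hspb1.

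Cryab (chr9:50751325-50756636, plus strand), the αB-crystallin that holds desmin and other filament proteins in muscle, was at 294 CPM in Ad-FAM3A4 and 283 CPM in Ad-FAM3A5. The other Ad-FAM3A aortas lay between 71.1 CPM in Ad-FAM3A6 and 173 CPM, and the Ad-sham aortas between 92.6 and 164 CPM. Its log2FC was 0.52 (SE 0.29). Bag3 (chr7:128523616-128546981, plus strand), the co-chaperone that joins HSP70 to small heat shock proteins in the turnover of damaged filament proteins, varied least, from 76.0 to 94.8 CPM in Ad-sham and from 58.8 CPM in Ad-FAM3A6 to 118 CPM in Ad-FAM3A1. Its log2FC of 0.11 was smaller than its SE of 0.17, and was 0.04 without Ad-FAM3A1.

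Levels can be set between genes only per length, here the gene length given with the counts, which need not be that of a transcript. In CPM per kilobase, Hspa8 led in Ad-sham at 385 ± 164, and Hspb1 followed at 309 ± 38.2, within the spread of Hspa8. Hsp90aa1 was at 136 ± 43.1 and Cryab at 83.5 ± 17.3 in Ad-sham. Bag3 (32.8 ± 2.97), Hsph1 (28.2 ± 8.55) and Dnaja1 (23.1 ± 10.03) followed with ranges that ran into each other, and Hspa1b (17.6 ± 12.9), Dnajb1 (15.9 ± 7.91) and Hspa1a (10.8 ± 8.36) were lowest. How reads shared by Hspa1a and Hspa1b were counted is not known. In Ad-FAM3A, Hspb1 (702 ± 605) and Hspa8 (570 ± 93.6) again headed the order and did not differ beyond their spread, and Hspa1b had moved up to 63.6 ± 40.6 per kilobase, beside Hsph1 at 57.9 ± 27.8. The 10 genes together took 0.232% to 0.476% of all counts in Ad-sham and 0.411% to 0.824% in Ad-FAM3A.

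To describe which aortas were high, each gene's log2 CPM was expressed as a z score over the 13 aortas, that is, as SDs from the gene's mean, and the 10 were averaged. Ad-FAM3A5 had the highest mean at 1.59 and was among the 3 highest aortas for all 10 genes. Ad-FAM3A4 (0.90) and Ad-FAM3A1 (0.76) came next, the former among the 3 highest for 5 genes and the latter for 4. Ad-sham1, at 0.28, was the only Ad-sham aorta above 0, and was above the median aorta for 6 genes.

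Ad-FAM3A3 (0.30) and Ad-FAM3A2 (0.23) lay on either side of Ad-sham1, while Ad-FAM3A6 (-0.25) and Ad-FAM3A7 (-0.26) lay beside Ad-sham2 (-0.24). Ad-sham5 (-1.20) and Ad-sham6 (-1.06) were lowest, with 7 and 6 of the 10 genes among the 3 lowest. Ad-sham6 was below the median aorta for all 10 genes, whereas Ad-sham5, the lowest for 5 genes, had the highest Bag3 of the Ad-sham aortas. Group means were -0.54 ± 0.54 and 0.47 ± 0.67.

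**Figure D2:**
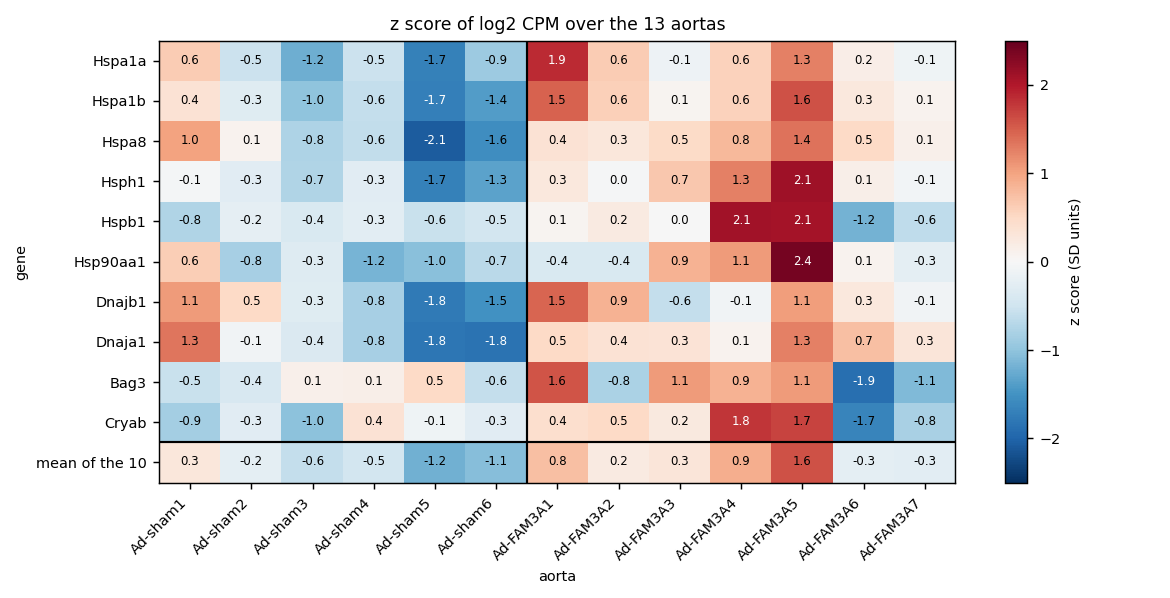
z score of log2 CPM (SD units, color) for the 10 genes (rows) in each of the 13 aortas (columns, in label order), with the mean of the 10 in the last row. Ad-FAM3A5 is high in every row, whereas Ad-FAM3A4 is high mainly in Hspb1, Cryab, Hsph1 and Hsp90aa1, and Ad-sham1 in Hspa8, Dnajb1 and Dnaja1.

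The high aortas did not share one profile. In Ad-FAM3A1, Hspa1a and Hspa1b were 5.15-fold and 3.62-fold above the median aorta, while Hsp90aa1 was at 0.97-fold and Hspb1 at 1.24-fold. In Ad-FAM3A4 the order was the reverse, with Hspb1 4.63-fold and Cryab 2.18-fold above the median aorta, Hspa1a at 1.78-fold and Dnaja1 at 0.93-fold. Ad-FAM3A5 combined both, with Hspa1b at 4.02-fold, Hspb1 at 4.56-fold and Hsp90aa1 at 3.17-fold. Ad-sham1 had Hspa1a at 1.86-fold, Dnajb1 at 1.66-fold and Hsp90aa1 at 1.49-fold, but Hspb1 at 0.73-fold and Cryab at 0.74-fold.

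Covariation was measured as Pearson r of log2 CPM over the 13 aortas. Over the 45 pairs of the 10 genes the median r was 0.62 and 44 pairs were above 0, against a median of -0.01 over all pairs of genes tested. Of the 45 pairs, 55.6% had an r above 0.6, which 6.12% of all pairs had. The points share libraries, tissue composition and scaling, and the genes were brought together partly for moving together, so no p is given. With the group means removed the median was 0.53, within Ad-FAM3A it was 0.55 and within Ad-sham 0.29, and left-out aortas moved it between 0.51 (without Ad-FAM3A5) and 0.69 (without Ad-FAM3A1). Within Ad-sham many pairs had a negative r, and values ran from -0.81 for Hsp90aa1 and Cryab to 0.99 for Hspa1b and Hspa8. The lowest within Ad-FAM3A was -0.07, for Hsp90aa1 and Dnajb1.

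**Figure D3:**
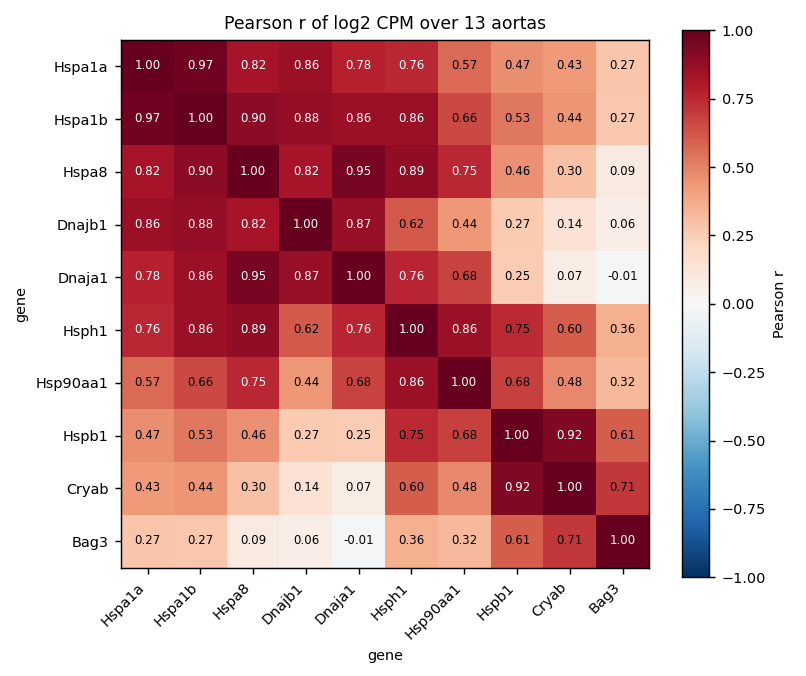
Pearson r of log2 CPM over 13 aortas for each pair of the 10 genes (both axes; color, r). Hspa1a, Hspa1b, Hspa8, Dnajb1 and Dnaja1 form a block with r of 0.78 to 0.97, Hspb1, Cryab and Bag3 a block with r of 0.61 to 0.92, and Hsph1 and Hsp90aa1 lie between them.

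Most of the high values lay in a pair of blocks. Hspa1a and Hspa1b had an r of 0.97, Hspa8 and Dnaja1 of 0.95, Hspa1b and Dnajb1 of 0.88, and Dnajb1 and Dnaja1 of 0.87, which puts HSP70 beside its J-domain partners. Hspb1 and Cryab had an r of 0.92, Bag3 and Cryab of 0.71 and Hspb1 and Bag3 of 0.61. Between Hspa1a, Hspa1b, Hspa8, Dnajb1 and Dnaja1 on one side and Hspb1, Cryab and Bag3 on the other, r ran from -0.01 for Dnaja1 and Bag3 to 0.53 for Hspa1b and Hspb1. Within Ad-sham every such pair had a negative r, from -0.69 for Hspa1a and Bag3 to -0.13 for Hspb1 and Dnajb1. Within Ad-FAM3A r ran from 0.04 for Dnaja1 and Bag3 to 0.79 for Hspa8 and Hspb1.

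Over all aortas Hsph1 joined both sides, with an r of 0.89 to Hspa8 and 0.75 to Hspb1, and of 0.93 to the mean of the other 9 genes, the highest of the 10. Within Ad-sham its r was 0.93 to Hspa8, but 0.14 to Hspb1, -0.15 to Cryab and -0.41 to Bag3. Hsp90aa1 was closest to Hsph1 (0.86). The lowest r to the other 9 was that of Bag3, at 0.36. Within Ad-sham the r to the other 9 was -0.54 for Bag3, -0.44 for Cryab and -0.21 for Hspb1. Within Ad-FAM3A it was 0.69, 0.84 and 0.85. Within groups the blocks were not equally visible: Hspb1 and Cryab had an r of 0.96 in Ad-FAM3A and 0.45 in Ad-sham, whereas Hspa8 and Dnajb1 had 0.19 in Ad-FAM3A and 0.97 in Ad-sham. Differences in r between the groups were not tested, and each rests on 6 or 7 aortas.

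**Figure D4:**
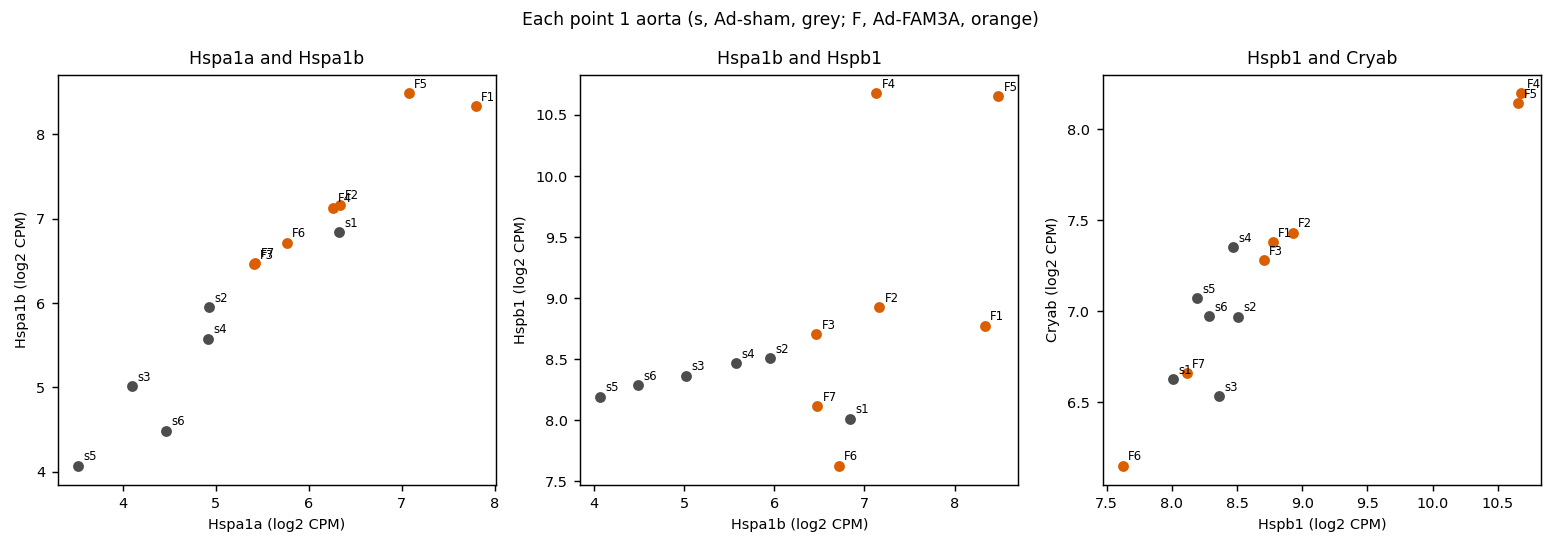
log2 CPM of gene pairs, 1 point per aorta (grey, Ad-sham; orange, Ad-FAM3A). Hspa1a and Hspa1b lie along a line (r = 0.97), Hspb1 and Cryab are set largely by Ad-FAM3A4 and Ad-FAM3A5 at the top and Ad-FAM3A6 at the bottom (r = 0.92), and Hspa1b and Hspb1 are looser (r = 0.53).

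The other genes were described from 9 lists of 94 genes, of which 92 were tested and 0 were called by edgeR, limma-voom or DESeq2. In the 7 lists of chaperones, their partners and regulators, 9 of 70 tested genes were higher and 1 lower at an unadjusted p under 0.05, beside 2.98% and 2.93% of all genes tested. Of the 9, 6 were in the endoplasmic reticulum list, 2 were co-chaperones and 1 was among the 14 cytosolic chaperones. In the 2 lists of other stress programs 0 of 22 were higher and 3 lower. Of 14 other cytosolic chaperones 11 were higher, with a median log2FC of 0.19, and their mean z score had an r of 0.90 with that of the 10 genes. Dnajb4, a J-domain protein abundant in muscle, had the largest difference, at 119 ± 46.7 and 207 ± 102 CPM, a log2FC of 0.79 (SE 0.34). Hspa4, another HSP110, differed by 0.19 (SE 0.14) but had an r of 0.85 with the mean z score.

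Of 15 co-chaperones 8 were higher, with a median log2FC of 0.04, which turned to -0.03 without Ad-sham5, -0.05 without Ad-sham6 and -0.01 without Ad-FAM3A4. Chordc1, an HSP90 partner, was at 65.5 ± 27.7 and 97.4 ± 31.2 CPM (log2FC 0.57, SE 0.26), and Cacybp at 76.0 ± 29.3 and 108 ± 27.7 CPM (0.50, SE 0.23). A triple of the repeat lay in a window of Chordc1 and also of Dnajb6, Hspd1 and Hspe1, whose log2FC values were -0.09, -0.17 and -0.02. Stip1, the adaptor between HSP70 and HSP90, differed by 0.37 (SE 0.20) and Ahsa1, the HSP90 ATPase activator, by 0.06 (SE 0.20), with -0.05 without Ad-sham6 and 0.18 without Ad-sham2. In the small heat shock protein list all 4 tested genes were higher, by 0.07 for Hspb8 (-0.05 without Ad-FAM3A5) to 0.44 for Hspb7 (SE 0.44, and 0.19 without Ad-FAM3A4), and Hspb2 went from 0.25 to -0.14 without Ad-FAM3A2, and Hspb3 and Cryaa had too few counts to be tested. Hsf1, the regulator of the response, was at 30.9 ± 6.35 and 32.4 ± 4.83 CPM, a log2FC of 0.07 (SE 0.15) that was -0.01 without Ad-sham1 and 0.15 without Ad-sham2. The list of heat shock factors had an r of 0.28 with the mean z score of the 10 genes, which ranged from 0.17 to 0.47 over left-out aortas and was 0.0016 when only library totals set the scale.

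All 8 subunits of TRiC, the cytosolic ring that folds actin and tubulin, were higher by 0.10 to 0.19 (median 0.14), the largest difference being that of Cct4 (SE 0.14). The r of this list with the 10 genes was 0.65 over all aortas, 0.94 within Ad-sham, 0.12 within Ad-FAM3A and 0.32 without the aortas with kidney markers. Chaperones of other compartments were set beside them. All 17 endoplasmic reticulum chaperones and unfolded protein response genes were higher (Calr by 0.07, and -0.01 without Ad-sham6), with a median log2FC of 0.36, among them Manf (0.57, SE 0.20), Herpud1 (0.56, SE 0.18) and Hspa5, the main chaperone of that compartment (773 ± 120 and 1097 ± 305 CPM, 0.50, SE 0.20). Their mean z score had an r of 0.63 with that of the 10 genes, 0.35 within Ad-FAM3A and 0.30 within Ad-sham. None of the 8 mitochondrial chaperones was higher (median -0.38, or -0.03 without 3 aortas with cardiac markers, and Hspe1 at 0.25 without Ad-sham2), and Lonp1, a mitochondrial protease, was at 118 ± 45.6 and 75.9 ± 11.8 CPM, a log2FC of -0.64 (SE 0.21). The summed level of these chaperones was 2208 to 2328 CPM in Ad-sham1, Ad-sham2 and Ad-sham3 and 949.9 to 1711 CPM elsewhere. Adipocyte markers were high in the same aortas: the brown adipocyte list summed to 2096 to 3591 CPM there and 521 to 2850.2 CPM elsewhere, and the white adipocyte list to 2492 to 3182 CPM against 720.3 to 1961 CPM. All 4 brown and all 5 white adipocyte markers were lower in Ad-FAM3A, with median log2FC values of -0.77 and -0.56, and their part in the values of the mitochondrial chaperones was not tested.

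**Figure D5:**
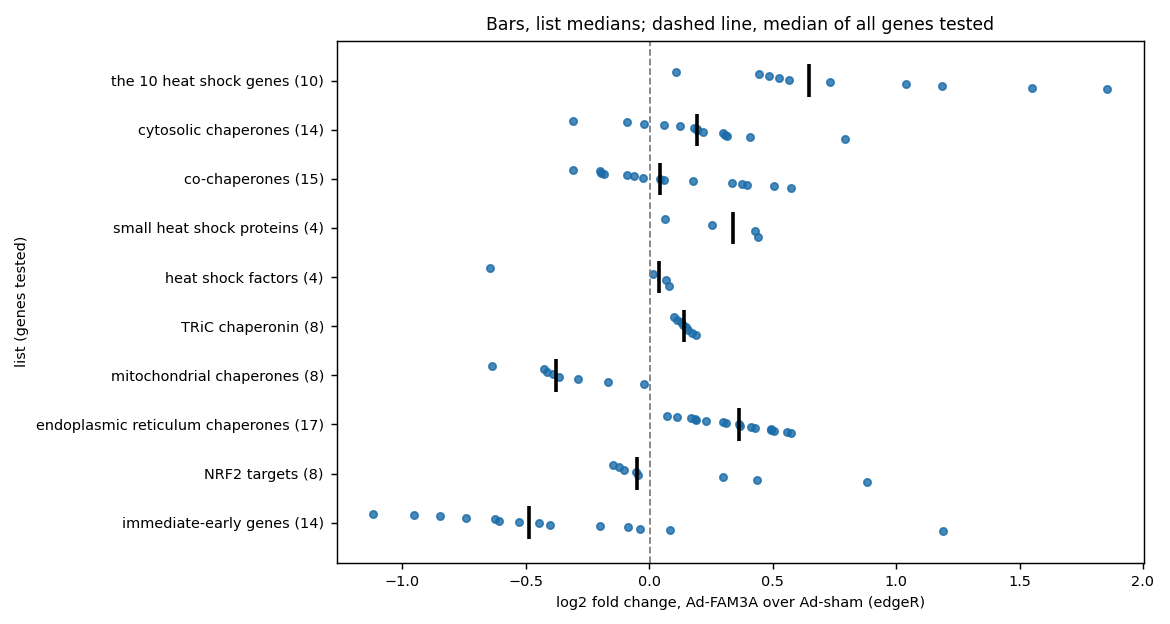
log2 fold change of Ad-FAM3A over Ad-sham (edgeR) for each gene (points) of the 10 heat shock genes and of 9 lists, with list medians as bars and the median of all genes tested as a dashed line. Endoplasmic reticulum chaperones lie right of the line (17 of 17) and mitochondrial chaperones left of it (8 of 8), and 0 genes were called.

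Genes of other stress programs were also examined. Of 8 targets of NRF2, the regulator of the oxidative stress response, 3 were higher, and their mean z score had an r of -0.05 with that of the heat shock genes. Of 14 immediate-early genes, which tissue handling and growth signals induce within minutes, 12 were lower, and the median log2FC of the 14 was -0.49, or -0.23 without Ad-sham2. The lower ones included Junb (112 ± 49.7 and 51.8 ± 16.6 CPM, -1.12, SE 0.33) and Egr1 (167 ± 76.4 and 86.1 ± 42.1 CPM, -0.95, SE 0.39). The r of the immediate-early list with the heat shock genes was -0.31 over all aortas, -0.62 within Ad-sham and 0.44 within Ad-FAM3A.

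The tested genes nearest to the mean z score of the 10 genes over the 13 aortas were Bag2, a nucleotide exchange factor of HSP70 (r = 0.89), Ahsa2, a relative of the HSP90 activator (r = 0.89), and Dnajb4 (r = 0.89). Bag2 ranged from 10.3 to 13.8 CPM in Ad-sham and from 10.3 CPM in Ad-FAM3A6 to 23.3 CPM in Ad-FAM3A5. Of the 10 nearest, these 3 are chaperone or co-chaperone genes. Then came Pik3cb, Blzf1, Rabgef1, Gm8399, Amd1, Zfp959 and Myoz2, with r from 0.88 to 0.85. Without Ad-FAM3A5 and Ad-FAM3A4, which lay farthest from the median, r was 0.69 to 0.85 for these 10. Among the 5 genes most opposite were Ifit3, Ahrr, Pik3r6 and Hook2, with r from -0.86 to -0.85, and Ifit3, an interferon-induced gene, ran from 5.74 CPM in Ad-FAM3A5 to 27.4 CPM in Ad-sham6.

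Markers of other tissues were set beside the heat shock genes. The smooth muscle list had an r of 0.40 with the mean z score of the 10 genes, 0.77 within Ad-FAM3A and -0.42 within Ad-sham. Without Ad-FAM3A4 and Ad-FAM3A5 it was 0.08, and without the aortas with cardiac markers 0.68. Cryab, Hspb1 and Bag3 had an r of 0.89, 0.76 and 0.66 with the mean z score of 7 smooth muscle markers, whereas Hspa1a, Hspa1b, Hspa8, Dnajb1 and Dnaja1 had an r of -0.16 to 0.24. Summed smooth muscle markers were 18761 CPM in Ad-FAM3A4 and 13510 CPM in Ad-FAM3A5, where Hspb1 and Cryab were highest, and 2293 CPM in Ad-FAM3A6, where they were lowest. Ad-sham2, with 13112 CPM of these markers, had 364 CPM of Hspb1. The part of smooth muscle content in these levels was not tested.

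Kidney markers ran the other way, with an r of -0.61 (-0.81 within Ad-sham and -0.29 within Ad-FAM3A) over 3 of 5 markers tested; Umod and Slc12a1 had too few counts. Their summed level ranged from 0.121 to 636 CPM in Ad-sham and from 0.147 to 319 CPM in Ad-FAM3A, and was highest in Ad-sham6 and above 100 CPM also in Ad-sham3, Ad-sham5 and Ad-FAM3A3, while Slc34a1, a proximal tubule transporter, was at 0 in 6 aortas. Ad-sham5 and Ad-sham6 were the aortas lowest in Hspa1b and Hspa8, and Ad-sham5 and Ad-sham3 those lowest in Hspa1a, whereas Ad-FAM3A3 had the fourth highest mean z score. With these 4 aortas left out, a choice made after seeing the data, 10 of 10 genes were still higher in Ad-FAM3A, 1 of 10 at an unadjusted p under 0.05 by edgeR beside 1.17% of all genes, and log2FC values were 1.37 for Hspa1b, 1.12 for Hspa1a, 0.73 for Hsph1, 0.19 for Hspa8, 0.18 for Dnajb1 and 0.13 for Dnaja1, but 1.25 for Hspb1, 0.61 for Hsp90aa1, 0.49 for Cryab and 0.11 for Bag3. The median log2FC of the TRiC subunits was then 0.02 and that of the endoplasmic reticulum chaperones 0.25, and the r with kidney markers was -0.38. The Schwann cell list had almost the same r of -0.60 (-0.61 within Ad-sham and -0.44 within Ad-FAM3A), or -0.31 without these 4 aortas. Summed sympathetic neuron markers were highest in Ad-sham3, Ad-sham5 and Ad-FAM3A3, at 1064, 1306 and 1480 CPM, and were 569 CPM in Ad-sham6. In these aortas kidney and nerve content cannot be told apart, and the part of either in the group differences was not tested.

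Cardiac muscle markers (4 of 6 tested; Myl7 and Nppa were not) had an r of 0.04 with the 10 genes, 0.77 within Ad-sham and -0.47 within Ad-FAM3A. They were highest in Ad-sham1, at 190 summed CPM, followed by Ad-FAM3A6 at 145 and Ad-sham3 at 56.7 CPM, against 6.49 to 25.0 CPM elsewhere. Ad-sham1 was the Ad-sham aorta with the highest HSP70 genes. Without these 3 aortas, a choice made after seeing the data, the log2FC values were 2.39 for Hspa1b, 2.11 for Hspa1a, 0.84 for Hspa8 and 0.77 for Dnaja1. At an unadjusted p under 0.05 by edgeR, 8 of 10 genes were higher beside 1.82% of all genes, and the median of the mitochondrial chaperones was -0.03 in place of -0.38. The set takes out Ad-sham1, the highest Ad-sham aorta by mean z score (0.28), and Ad-FAM3A6 (-0.25), besides Ad-sham3 (-0.60). Larger log2FC values thus follow partly from the choice. The part of heart tissue in the values of Ad-sham1 was not tested.

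Lymphocyte markers were high in the Ad-FAM3A aortas with the lowest mean z scores. Ad-FAM3A6 had a sum of 536 CPM over the 4 B cell markers and Ad-FAM3A7 one of 207 CPM, while 5.01 to 38.8 CPM were found elsewhere. All 4 had a higher mean in Ad-FAM3A, with a median log2FC of 2.26 and an unadjusted p under 0.05 by edgeR, beside 2.98% of all genes. The difference rested on Ad-FAM3A6 and Ad-FAM3A7, as the median of the summed markers was lower in Ad-FAM3A (16.4 CPM) than in Ad-sham (20.4 CPM). The 4 T cell markers summed to 203 CPM in Ad-FAM3A6, 74.4 CPM in Ad-sham4 and 29.6 CPM in Ad-FAM3A7, and to 3.46 to 12.4 CPM elsewhere. The r of the B cell list was -0.69 with Bag3 and -0.61 with Cryab. Without Ad-FAM3A6 and Ad-FAM3A7, a choice made after seeing the data, the log2FC was 0.26 for Bag3, 0.80 for Cryab, 1.53 for Hspb1 and 2.09 for Hspa1b, and 6 of 10 genes were higher at an unadjusted p under 0.05 by edgeR beside 3.43% of all genes. The part of lymphocyte RNA in these values was not tested.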

How the data were processed

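RNA was sequenced from 13 whole aortas. Hisat2 alignment to GRCm38 followed quality filtering of reads, and the authors deposited raw counts per Ensembl gene from FeatureCounts; the annotation release, strand setting and handling of multi-mapping reads are not given in the sources used here. The authors' FPKM, deposited as 1 mean per group, served only to check the column labels and are not printed. All count columns matched a sample label. The extraction kit named in the labels differs from that of the paper's methods.

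Counts were normalized by TMM and filtered by filterByExpr in edgeR 4.0.16 (R 4.3.3), and groups were compared by its quasi-likelihood test, with p-values adjusted after Benjamini and Hochberg across 15811 genes; calls needed an adjusted p under 0.05 and a log2FC beyond 1 in either direction. The SE was taken as the size of log2FC over the root of F. log2 CPM used a prior count of 2. The labels name no litters, so p-values measure only the spread between these aortas. The procedure was tested on simulated data. Alternatives, among them limma 3.58.1 (voom) and DESeq2 1.42.0, are given in the closing section.

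The 10 genes, the lists and the tests were chosen with earlier results of these data known. Named genes were the 10, those of the lists, the 10 genes with the highest and 5 with the lowest r to the mean z score, Fam3a, and pseudogenes that bear on a count. Of 13 marker lists (66 genes, 61 tested), those whose r is not given above had an r with the mean z score of -0.38 (B cells), -0.34 (T cells), -0.31 (sympathetic neurons), -0.30 (skeletal muscle), -0.28 (endothelium), -0.24 (macrophages), -0.15 (white adipocytes), -0.07 (fibroblasts) and -0.01 (brown adipocytes). Without the aortas with kidney markers r was 0.17 for sympathetic neurons, 0.04 for endothelium and 0.34 for fibroblasts, and stayed negative for the rest of these lists. For white adipocytes it was 0.16 without Ad-FAM3A5. Replicate numbers in the labels are shared by the groups, and the deviations of same-numbered aortas correlated at -0.33 to 0.45, above 0.1 in 3 of 6 pairs. Differently numbered aortas were not compared, so these values cannot decide on pairing. The main fit was unpaired. The result for 1 named gene is not reported here. Sequences are RefSeq windows (GRCm38.p6); proteins were not used here.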

Additional observations from a re-analysis of the deposited data

Results flagged for a closer look

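Among 68 sets of values examined for a sample far from the rest of its group, 2 were flagged, where chance alone flags about 1 in 20 groups, or 3.4. Both concern markers of other tissues and not the heat shock genes. For Ad-FAM3A6 the mean log2 CPM of the cardiac muscle markers was 4.83, while the remaining Ad-FAM3A aortas spanned 0.70 to 2.15; Hspb1, Cryab and Bag3 were lowest in the same aorta. The T cell markers had a mean log2 CPM of 3.78 in Ad-sham4, against 0.54 to 1.40 in the other Ad-sham aortas, and Hsp90aa1 was lowest there. The part of these tissues in the values of the heat shock genes was not tested.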

How the results depend on the processing

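Of 1390 recomputed values, 10 moved beyond their limits. DESeq2 called 10 genes in place of 0, none of them a heat shock or pathway gene; every other alternative called 0. With a replicate block, a choice that the correlation of same-numbered aortas cannot decide, 4 of the 10 genes had an unadjusted p under 0.05 and 620 genes in all, against 6 and 934. Without a filter on low counts 2269 genes did, and by DESeq2 1501. Leaving out each aorta gave 0 called genes throughout, and 3 to 8 of the 10 genes at an unadjusted p under 0.05 (3 without Ad-FAM3A4 or Ad-FAM3A5, 8 without Ad-sham1). In both directions, 491 genes in all (without Ad-sham3) to 1345 (without Ad-FAM3A2) had such a p, so the ends of these ranges belong to different aortas. All 10 log2 fold changes kept their sign throughout. Without the aortas with kidney, cardiac or B cell markers, sets chosen after seeing the data, 522, 480 and 994 genes had an unadjusted p under 0.05. The median r among the 10 genes stayed between 0.51 and 0.72 over left-out aortas, left-out genes and other scalings, and r with the other cytosolic chaperones between 0.85 and 0.95. The lowest count of any of the 10 genes in any aorta was 245, so depth limits these values little. Causes were not tested.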

Other observations

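Atf3, a stress-responsive transcription factor in the immediate-early list, was singled out after its values were seen. It stood at 157 CPM in Ad-FAM3A1, the aorta with the highest Hspa1a, Dnajb1 and Bag3, against 10.03 to 26.0 CPM in Ad-sham and 15.2 to 43.3 CPM in the other Ad-FAM3A aortas. Its log2 fold change of 1.19 (SE 0.56) was 0.30 without Ad-FAM3A1. Fosb, the other immediate-early gene that was higher (0.08, SE 0.61), was at -0.73 without the same aorta.

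The interferon-induced gene Ifit3 was at 23.1 ± 3.54 CPM in Ad-sham and 14.1 ± 6.71 CPM in Ad-FAM3A (log2 fold change -0.71, SE 0.28), and within Ad-FAM3A its lowest values, 5.74 and 8.66 CPM, were those of Ad-FAM3A5 and Ad-FAM3A4. Ahrr, the repressor of the aryl hydrocarbon receptor, was at 1.27 ± 0.984 and 0.615 ± 0.462 CPM and was lowest in the same aortas. Both were named because their levels ran most opposite to the heat shock genes, so these values carry no test.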
